A study of Mus musculus with 8 samples.

Results

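The primary cilium is a single, non-motile antenna on the surface of most mammalian cells, and the genes described here build it, move cargo along it and carry the Hedgehog signal that runs through it. They are 48 genes listed by name and matched by Ensembl ID in the deposited table of 75078 genes. All 48 were in the table, 36 of them genes of the cilium itself and 12 of the Hedgehog pathway. RNA-seq was done on αTC1-6, a mouse line with the character of pancreatic alpha cells, the glucagon-secreting cells of the islet. Both groups were seeded, transfected after 24 h and kept in DMEM labelled 11 mM, and they differed in the plasmid, which was empty in libraries 31, 32, 33 and 34 and carried Yy1 in libraries 45, 46, 47 and 48. The promoter of the Yy1 plasmid and the time from transfection to harvest are not given in the sources used here. Yy1 encodes a zinc finger transcription factor that can activate or repress its targets.

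Cargo moves along the cilium on trains of intraflagellar transport (IFT) proteins, with IFT-B for the outward run on kinesin-2 and IFT-A for the return. The BBSome is a coat-like complex that carries membrane receptors out of the cilium, and the transition zone is the gate at its base. In vertebrates Hedgehog signalling depends on this organelle: without ligand, PTCH1 holds SMO inactive and the GLI factors are processed towards repressors, and ligand lets SMO accumulate in the cilium and frees the GLI activators, whose usual targets include Gli1, Ptch1 and Hhip. Islet cells carry primary cilia, and Hedgehog ligand is excluded from the early pancreas bud.

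The libraries held 20679804 to 30570601 estimated counts in the empty plasmid group and 29680177 to 33347445 in the Yy1 group. Yy1 itself stood at 175.1 ± 5.33 CPM (counts scaled to the library's total; SD, n = 4) in the former group, and its level was 5233 ± 464.1 CPM (SD, n = 4) under the Yy1 plasmid, which is 4.90 on the log2 scale (SE 0.062) at an edgeR adjusted p of 7.38e-24. Gcg, the glucagon gene, was at 21230 and 21290 CPM, none of the 13 tested alpha cell markers of 14 listed passed the test, and Gc was at 0 in every library. Of 11 markers of other islet cells, Ins1, Ins2, Ucn3 and Ppy were at 0 in every library, and the summed level of the 11, mostly Nkx6-1 at 54.8 and 51.0 CPM, was 53.6 to 58.1 CPM under the empty plasmid and 49.7 to 59.8 CPM under the Yy1 plasmid. The highest Yy1 count of Mafa, a beta cell factor, was 29, and its counts summed to 28 and 68 with overlapping groups (edgeR adjusted p = 0.854). The summed level of 10 acinar and duct markers ranged from 17.1 to 18.1 CPM under the empty plasmid and from 18.5 to 20.9 CPM under the Yy1 plasmid, without overlap. Prss1 was at 0 throughout. All 4 tested markers of this list had the higher mean under the Yy1 plasmid. Of them 2 did not overlap, Sox9 (3.95 and 4.76 CPM) and Spp1 (5.29 and 6.19 CPM), where 3.95% of all tested genes showed no overlap. For 12 stromal, endothelial and immune markers the sums were 4.27 to 6.51 CPM and 5.12 to 6.78 CPM. Among them Ptprc, a leukocyte marker with too few counts for the test, had 2 to 5 counts per empty plasmid library and 9 to 19 per Yy1 library, without overlap (edgeR adjusted p = 0.0855 in a fit without a filter on counts). Cd68, another immune marker of this list, was tested and went the other way, also without overlap. Its mean was 1.14 CPM under the empty plasmid and 0.812 CPM under the Yy1 plasmid (edgeR adjusted p = 0.909). No marker passed the test, and the part of these cell types in any result was not tested. The labels do not say that the libraries of a group came from separate cultures or handling days, so p-values measure the spread among these libraries, which may be technical, and handling cannot be told apart from the plasmid.

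None of the cilium and Hedgehog genes passed the test between the plasmids. Of the 48, 42 had enough counts to be tested, namely all 36 cilium genes and 6 of the 12 Hedgehog genes. At an adjusted p under 0.05 in edgeR's quasi-likelihood test, 0 of these 42 were called, where 0.515% of all 15916 tested genes were called (82 genes, of which 79, or 0.496% of those tested, were higher and 3, or 0.0188%, lower under the Yy1 plasmid). At an unadjusted p under 0.05 the count was again 0 of 42, against 5.42% of all tested genes, and DESeq2 and limma-voom also called 0. The smallest adjusted p among the 42 in edgeR was 0.929. Log2 fold changes (Yy1 plasmid minus empty plasmid) were positive for 19 and negative for 23, with a median of -0.019 beside -0.0025 over all tested genes. They ran from -0.29 for Kif7 to 0.21 for Ift88, and 33 of the 42 were smaller than 0.1 in size. Because these are bulk samples, a difference in the share of ciliated cells could not be told apart from one in RNA per cell.

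For these libraries, whose spread may be technical, most of these differences were bounded closely. For 32 of the 42 genes (76.2%) the 95% interval of the fold change lay wholly within 1.2-fold in either direction, where 58.2% of all tested genes did. Among the 11233 tested genes at or above the level of the least abundant cilium gene the share was 82.4%, and among the 36 cilium genes 30 (83.3%) met the bound. Of the 6 tested Hedgehog genes 2, Ptch1 and Sufu, met it. The median biological coefficient of variation was 0.0536 for the cilium genes and 0.051 for tested genes of that level. Summed over the 36 cilium genes, the level was 1128 to 1162 CPM in the empty plasmid libraries and 1121 to 1134 CPM in the Yy1 libraries, and these ranges overlap.

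**Figure D1:**
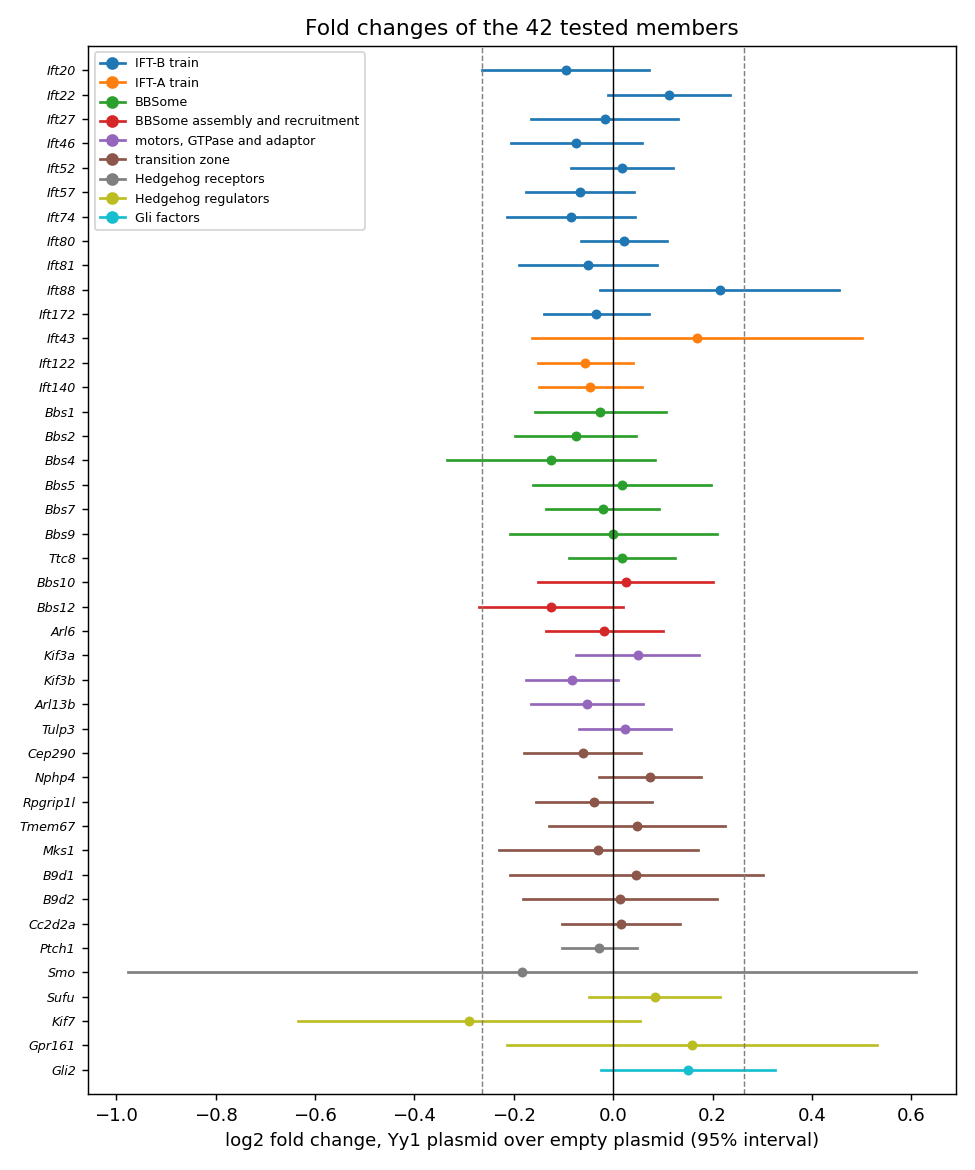
Log2 fold change (Yy1 plasmid minus empty plasmid) with its 95% interval from edgeR for each of the 42 tested genes, grouped by role. Every interval includes 0, and the widest belong to the less abundant Hedgehog genes such as Smo (-0.98 to 0.61).

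**Figure D2:**
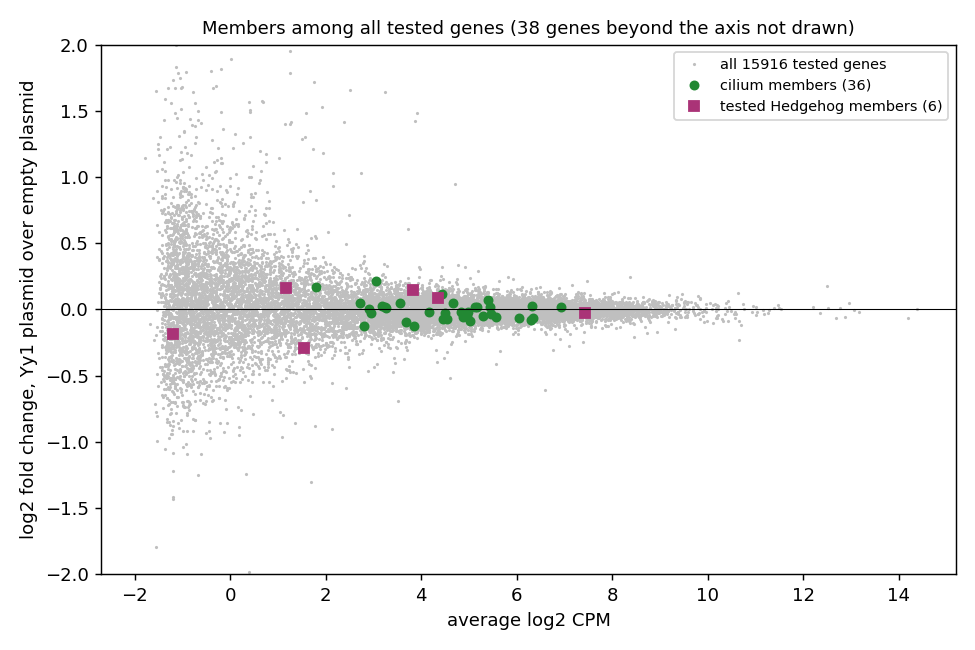
Log2 fold change against average log2 CPM for all 15916 tested genes (the 38 beyond the axis limit of 2 are left out of view), with the cilium and Hedgehog genes marked. The 42 tested genes lie between -0.29 and 0.21.

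Promoter sequence was examined for letters that YY1, the RFX factors that drive ciliary genes and the GLI factors are known to bind. RefSeq gave a window from 250 bases before to 50 after the start (build GRCm38.p6) for 42 of the 48 genes. Gli1, Ift122, Ift80, Ift81, Shh and Tmem67 were not matched. Both strands were searched, and a window can count for both YY1 motifs, because the longer one is the core AANATGGC followed by any base, G and C. The longer motif was found in 1 of 42 genes, Bbs1, beside 2.08% of all 27025 genes with a window. The core was found in 2, Bbs1 and Ift88, beside 6.96% of genes. The RFX X-box, searched as GTTNC and GNNAAC with any 3 bases between them, was found in 4 genes, beside 1.55% of genes, and the GLI motif GACCACCCA in 0 of 42, beside 0.289%. The 6 stretches that hold a match are shown because they let the YY1 and X-box letters be set beside each gene's measured difference. Each is written 5′ to 3′ on the gene's own strand with the matched letters in capitals. In Bbs1 (chr19:4906591-4906620, minus strand) the match begins 22 bases after the start. In Ift88 (chr14:57423827-57423864, plus strand) the capitals are the reverse complement of the core, and in B9d2 too only the reverse complement of the capitals fits the X-box pattern. The X-box stretches lie at chr3:36613482-36613525 for Bbs7 (minus strand), chr7:25680781-25680810 for B9d2, chr11:61505123-61505166 for B9d1 and chr11:87853176-87853219 for Mks1 (these last on the plus strand).
Bbs1, YY1: aaggcgacgcctgggAAAATGGCTGCggcg
Ift88, YY1 core: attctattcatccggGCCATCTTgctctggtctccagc
Bbs7, X-box: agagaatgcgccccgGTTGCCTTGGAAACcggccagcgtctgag
B9d2, X-box: ggggaggaacctgctGTTGCCCCAGCAACa
B9d1, X-box: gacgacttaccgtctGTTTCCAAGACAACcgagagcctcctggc
Mks1, X-box: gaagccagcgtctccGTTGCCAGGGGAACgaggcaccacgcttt
A match is only a description of the letters in the window, and a window without one says nothing about the factor. The log2 fold change was -0.026 for Bbs1 and 0.21 for Ift88, the genes with YY1 letters. For the X-box genes it was -0.021 for Bbs7, 0.014 for B9d2, 0.046 for B9d1 and -0.030 for Mks1. None of these 6 genes passed the test.

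Of the 11 IFT-B genes, 4 had a positive and 7 a negative log2 fold change, with a median of -0.034, and their summed level was 419.5 to 429.3 CPM under the empty plasmid and 410.2 to 432.9 CPM under the Yy1 plasmid. Ift80, a peripheral IFT-B subunit, was the most abundant of all the cilium genes. Its levels were 119.6, 118.3, 116.4 and 128.1 CPM in the empty plasmid libraries and 121.8, 118.7, 128.2 and 121.1 CPM in the Yy1 libraries. The groups overlap almost fully, at 120.6 ± 5.17 and 122.4 ± 4.03 CPM (SD, n = 4 each).

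Ift88, a core IFT-B subunit without which cells fail to form cilia, was the least abundant IFT-B gene. It stood at 8.41, 8.96, 6.47 and 6.30 CPM under the empty plasmid and at 9.63, 8.86, 7.40 and 9.25 CPM under the Yy1 plasmid. The lowest Yy1 library lay between the empty plasmid values and the other three were near or above the highest of them, so the groups overlap. Ift88 had a log2 fold change of 0.21 (SE 0.12, 95% interval -0.026 to 0.45), with an edgeR adjusted p of 0.937. Ift88 shares exon sequence with Ift88os on the opposite strand, and the sources used here do not say whether counting used the strand, so reads of the pair may not have been told apart.

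Ift22, which encodes a small GTPase-like subunit of the train, was the only one of the 42 tested genes whose groups did not overlap, where 3.95% of all tested genes showed no overlap. It was at 21.2, 19.9, 19.8 and 21.9 CPM under the empty plasmid and at 22.7, 22.9, 21.9 and 22.1 CPM under the Yy1 plasmid. The gap between the groups was very narrow, since the highest empty plasmid library reached 21.87 CPM and the lowest Yy1 library 21.91 CPM. The log2 fold change was 0.11 (SE 0.059, 95% interval -0.0096 to 0.24), with an edgeR adjusted p of 0.929.

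Ift74, a core subunit that binds tubulin together with IFT81, was at 35.9, 31.6, 36.5 and 30.7 CPM under the empty plasmid and at 32.8, 30.1, 30.2 and 33.7 CPM under the Yy1 plasmid. Its groups overlap, with 2 of the empty plasmid libraries above every Yy1 library. For Ift74 the difference on the log2 scale was -0.085 ± 0.062 (SE; edgeR's adjusted p was 0.978). IFT-B holds 11 of the 42 tested genes. Of the 8 tested genes with the smallest p in the whole set, 3 (Ift22, Ift88 and Ift74) belong to it. Ift74 pointed the other way from Ift22 and Ift88.

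The 3 IFT-A genes summed to 89.6 to 92.5 CPM under the empty plasmid and 84.0 to 91.1 CPM under the Yy1 plasmid. Ift122, a core IFT-A subunit, was the most abundant, with 49.1, 46.2, 47.6 and 50.5 CPM in the empty plasmid libraries and 44.6, 46.6, 47.5 and 47.4 CPM in the Yy1 libraries. Ift43, a small peripheral subunit, was the least abundant, with 3.47, 2.86, 2.94 and 3.36 CPM against 3.13, 4.18, 4.36 and 2.60 CPM. Both genes overlap between groups, and the Yy1 libraries of Ift43 scatter to both sides of the empty plasmid range. On the log2 scale the differences were -0.056 for Ift122 and 0.17 for Ift43, the latter between 0.055 and 0.29 with 1 library left out.

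The 7 BBSome genes had a median log2 fold change of -0.021, with 3 positive and 4 negative. Ttc8, also known as Bbs8, was the most abundant by CPM, at 35.8, 36.3, 34.8 and 35.9 CPM under the empty plasmid and 33.3, 36.2, 37.1 and 38.0 CPM under the Yy1 plasmid. Bbs4, which helps complete the coat at the centriolar satellites, had the lowest CPM, at 6.43, 7.23, 8.24 and 7.09 CPM against 6.04, 7.07, 6.44 and 6.90 CPM, though Bbs9 was lower per kb. In neither gene did the groups separate, and the Bbs4 difference of -0.13 (SE 0.10) on the log2 scale was the most negative among the cilium genes.

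Assembly of the BBSome needs chaperonin-like proteins, and its recruitment to membranes needs the GTPase ARL6. Arl6 was at 32.3, 30.8, 29.9 and 33.5 CPM under the empty plasmid and 33.4, 31.9, 31.0 and 28.9 CPM under the Yy1 plasmid, while the chaperonin-like Bbs10 was at 9.45, 9.15, 8.38 and 8.70 CPM against 9.66, 9.53, 8.55 and 8.66 CPM. Bbs12, a second chaperonin-like gene, was at 15.2, 14.6, 13.9 and 15.8 CPM under the empty plasmid and 12.8, 13.8, 13.9 and 14.1 CPM under the Yy1 plasmid. Its groups overlap only at their edges, where the lowest empty plasmid value falls below the upper Yy1 values. For Bbs12 the log2 fold change was -0.12 (SE 0.070, edgeR adjusted p = 0.946). Bbs12 overlaps exons of the gene model Gm43439 on the same strand, so reads may be divided between them.

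KIF3A and KIF3B are the motor subunits of the kinesin-2 that pulls the IFT trains outward. Kif3b was at 80.7, 77.6, 87.3 and 78.1 CPM under the empty plasmid and 75.5, 74.3, 79.2 and 76.1 CPM under the Yy1 plasmid. Kif3a was at 23.5, 24.9, 27.0 and 24.1 CPM against 26.6, 25.9, 24.0 and 26.3 CPM. For Kif3b a single Yy1 library, 47, reached into the empty plasmid range, and for Kif3a the groups interleave. For Kif3b the difference on the log2 scale was -0.084 ± 0.045 (SE; edgeR's adjusted p was 0.929) and for Kif3a it was 0.049, so the 2 motor genes differed in sign and neither passed the test.

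Of the 8 transition zone genes 5 had a positive and 3 a negative difference, with a median of 0.015, and their summed level was 212.6 to 235.3 CPM under the empty plasmid and 218.4 to 226.4 CPM under the Yy1 plasmid. Cep290, which encodes the large linker between the ciliary membrane and the microtubules, was at 77.8, 75.4, 92.2 and 87.2 CPM against 83.2, 81.6, 78.0 and 75.3 CPM. B9d1, a B9 domain subunit of the gate, was at 5.58, 5.23, 8.19 and 6.84 CPM against 6.96, 5.83, 6.71 and 6.93 CPM. In both genes the empty plasmid libraries spread more widely than the Yy1 libraries, with library 33 the highest of the 8. Nphp4, a nephronophthisis gene of the same gate, was at 40.1, 44.3, 38.6 and 42.1 CPM under the empty plasmid and 43.8, 44.0, 43.6 and 42.5 CPM under the Yy1 plasmid. Its Yy1 libraries cluster near the top of the empty plasmid range, and the log2 fold change was 0.074 (SE 0.049, edgeR adjusted p = 0.957).

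The remaining 20 cilium genes are Ift20, Ift27, Ift46, Ift52, Ift57, Ift81 and Ift172 of IFT-B, Ift140 of IFT-A, Bbs1, Bbs2, Bbs5, Bbs7 and Bbs9 of the BBSome, the ciliary GTPase gene Arl13b, the adaptor gene Tulp3, and Rpgrip1l, Tmem67, Mks1, B9d2 and Cc2d2a of the transition zone. Their mean levels under the empty plasmid ran from 7.41 CPM for Bbs9 to 78.7 CPM for Tulp3, which brings receptors such as GPR161 into the cilium on IFT-A. Of their log2 fold changes 7 were positive and 13 negative, from -0.096 for Ift20, which also works at the Golgi, to 0.048 for Tmem67. The smallest edgeR adjusted p among them was 0.98.

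**Figure D3:**
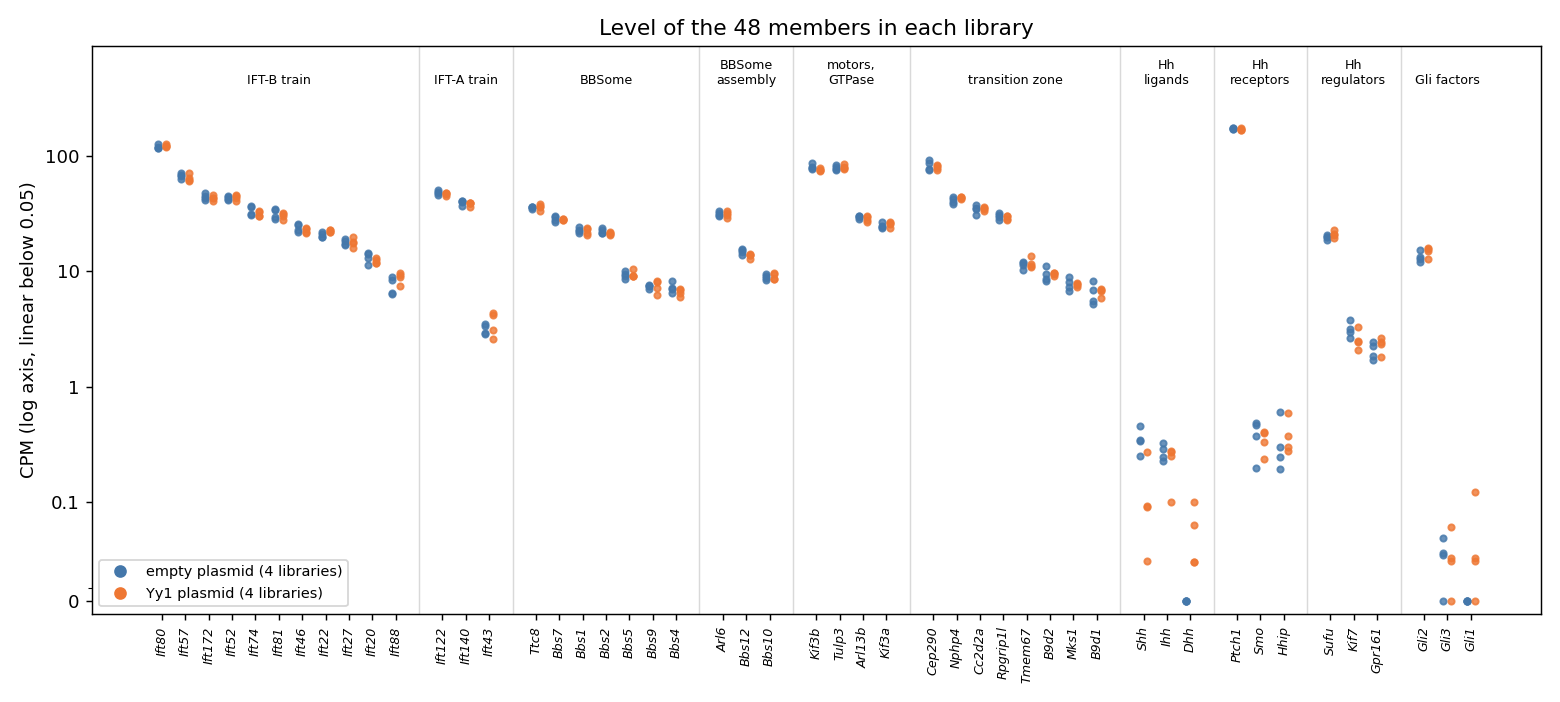
CPM of all 48 genes in each of the 8 libraries, on a log axis that is linear below 0.05 CPM, grouped by role and coloured by plasmid. For the cilium genes the points of the plasmid groups lie side by side at like heights, from Ift80 at a mean of 120.6 CPM down to Ift43 at 3.16 CPM under the empty plasmid, while most Hedgehog genes lie under 1 CPM.

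CPM is not corrected for length, so further comparisons between genes were made per kb, as CPM divided by the length of the longest GENCODE M21 basic transcript. Under the empty plasmid the IFT-B genes ran from 29.7 CPM per kb for Ift80 and 26.0 for Ift57 down to 2.44 for Ift88, a ratio of Ift80 to Ift88 of 12.2, and it was 10.6 under the Yy1 plasmid. Within IFT-A, Ift122 was 2.05 times Ift140 and 2.91 times Ift43 per kb, and under the Yy1 plasmid 2.04 and 2.48 times. Within the BBSome, Ttc8 was 7.41 times Bbs9 under the empty plasmid and 7.52 times under the Yy1 plasmid. Kif3b exceeded Kif3a 1.82 times per kb in the first group and 1.66 times in the second. These ratios depend on the transcript lengths chosen.

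No library stood apart in its median over these genes. The median deviation of the 42 tested genes from their mean over libraries, on the log2 scale, ran from -0.023 in Yy1 library 47 to 0.023 in empty plasmid library 32. The pooled SD of these medians within groups was 0.0131, and the medians of the 2 plasmid groups overlap. Over all tested genes, empty plasmid library 33, the shallowest, differed most from its replicates. Its pairs had a chi-square per degree of freedom of 8.19 to 12.3, and the other empty plasmid pairs 4.03 to 6.38.

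**Figure D4:**
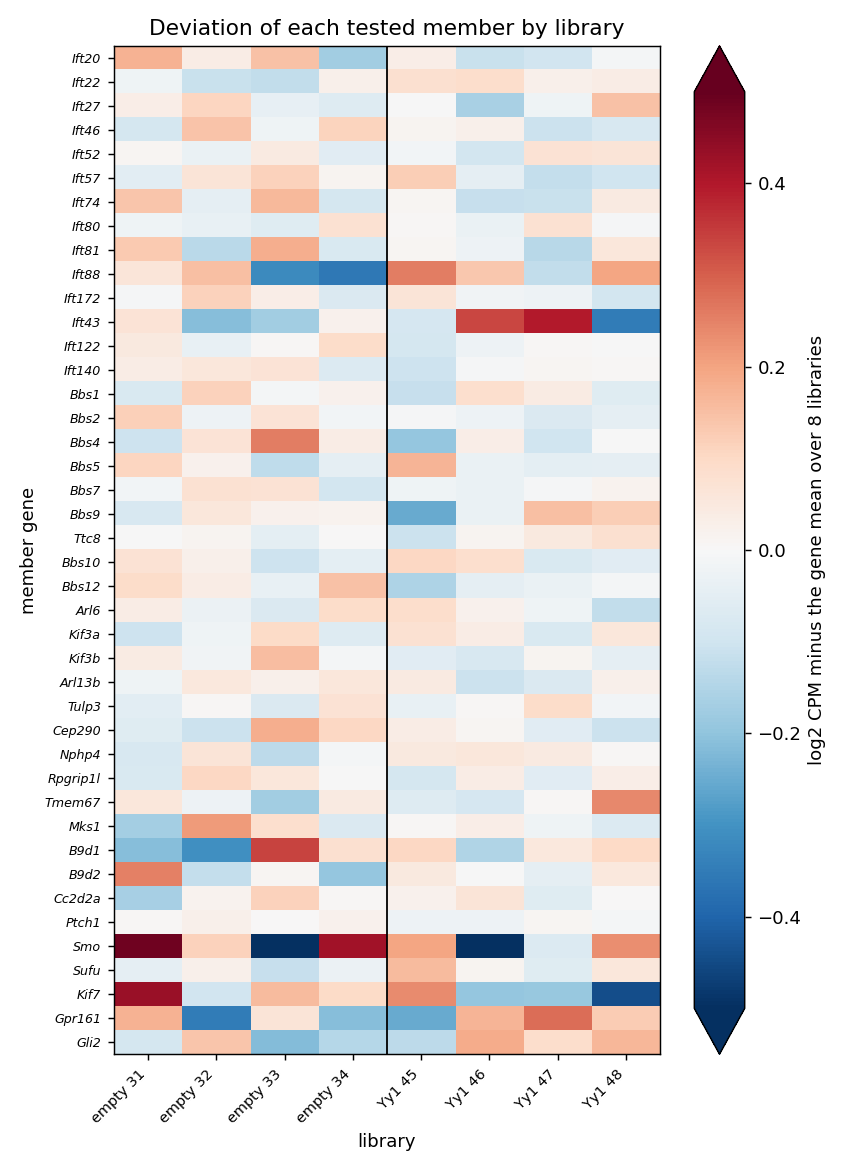
Heat map of the deviation of each of the 42 tested genes (vertical axis) from its own mean over the libraries, in log2 CPM, with 1 column for each of the 8 libraries and a line between the plasmid groups. Red is above and blue below the gene's mean. The column medians lie between -0.023 and 0.023, and the strongest colours belong to Smo, which has few counts.

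The Hedgehog ligands were at the edge of detection, and none had enough counts for the test. Shh, the ligand known for patterning the gut tube, had 14, 9, 7 and 7 estimated counts in the empty plasmid libraries and 3, 8, 3 and 1 in the Yy1 libraries. The sums were 37 and 15, and the groups overlap through Yy1 library 46 with its 8 counts. In a fit without the filter on low counts, which tested 40437 genes and called 0.43% of them, the log2 fold change of Shh was -1.51 (SE 0.60, edgeR adjusted p = 0.653). Shh did not pass the test there, although its unadjusted p was under 0.05, as it was for 5.69% of the genes in that fit. Shh shares exon sequence with 2 genes on the opposite strand, so these few counts carry that doubt too.

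Ihh, the ligand best known from growing bone and gut, had 10, 6, 5 and 8 counts under the empty plasmid and 9, 3, 9 and 8 under the Yy1 plasmid, and the groups overlap. Dhh, the ligand of testis and nerve sheath, had 0 counts in each empty plasmid library and 1, 3, 1 and 2 in the Yy1 libraries. The Yy1 libraries all lie above the empty plasmid libraries, but none exceeds the floor of 3 counts used here, so no fold is given for Dhh. Its edgeR adjusted p in the fit without the filter was 0.736. Dhh also shares exon sequence with Gm49442 on the opposite strand, so its few counts carry the same doubt as those of Shh.

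Ptch1, the Hedgehog receptor and itself a usual target of the pathway, had the highest CPM of all 48 genes, which is not corrected for length (per kb, Ift80, Ift57 and Tulp3 were higher). It stood at 173.1, 175.8, 172.7 and 175.3 CPM under the empty plasmid and 169.4, 169.4, 173.6 and 171.3 CPM under the Yy1 plasmid. The Yy1 libraries were mostly the lower, with only library 47 inside the empty plasmid range, over means of 174.2 ± 1.57 and 170.9 ± 1.99 CPM (SD, n = 4 each). The log2 fold change was -0.028 (SE 0.036, 95% interval -0.10 to 0.048), with an edgeR adjusted p of 0.993. At 22.5 CPM per kb under the empty plasmid, Ptch1 lay above 76.3% of the 14355 tested genes with a length.

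Smo, the transducer that PTCH1 holds inactive, was by contrast near the limit of the test. It had 15, 10, 4 and 13 counts under the empty plasmid and 13, 7, 11 and 13 under the Yy1 plasmid, or 0.38 ± 0.13 and 0.34 ± 0.079 CPM (SD, n = 4 each). The groups overlap throughout, and the log2 fold change of -0.18 ± 0.38 (SE; edgeR's adjusted p was 0.997) had an interval from -0.98 to 0.61. At 0.101 CPM per kb under the empty plasmid, Smo lay above 2.09% of the tested genes with a length. Per kb, Ptch1 was 223 times Smo under the empty plasmid and 244 times under the Yy1 plasmid. Hhip, a membrane protein that captures ligand and is a usual pathway target, had 6, 8, 5 and 17 counts against 9, 11, 10 and 19, with overlapping groups and too few counts for the test.

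**Figure D5:**
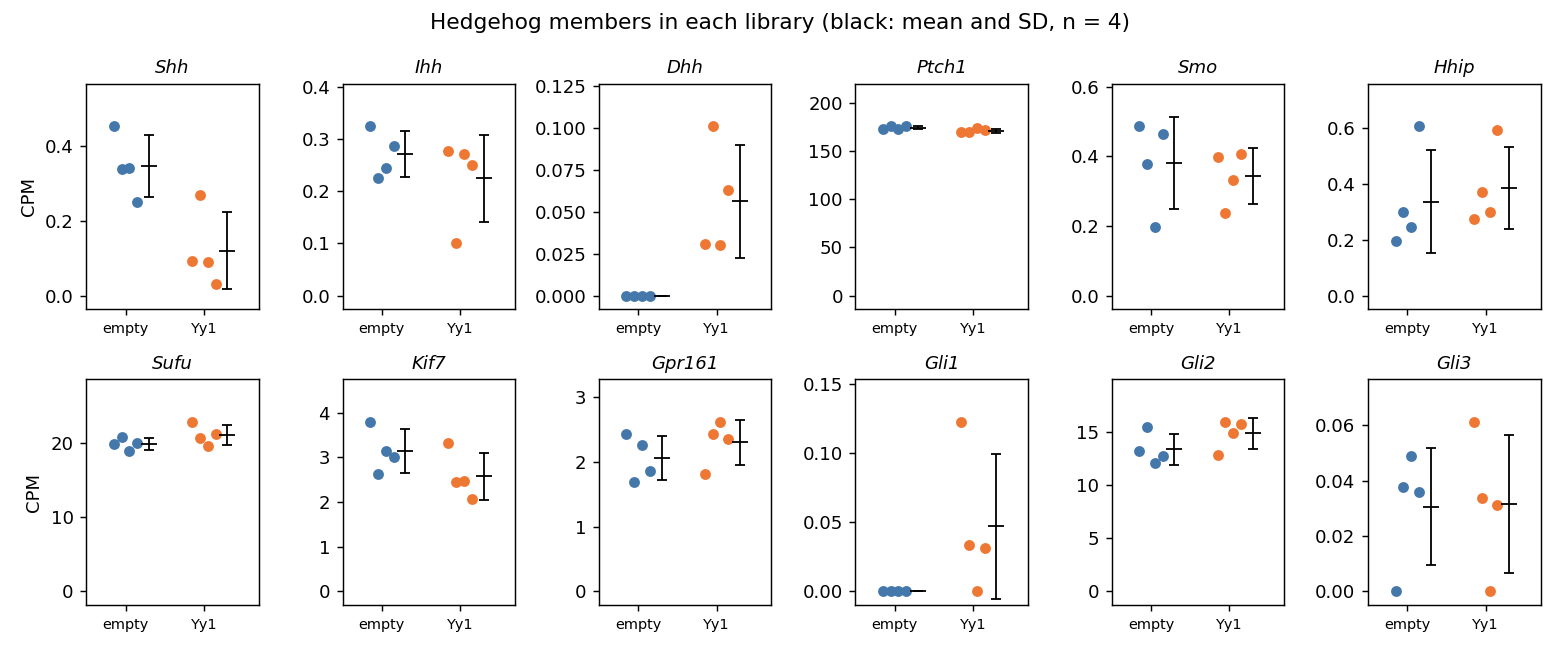
CPM of the 12 Hedgehog genes in each library, 1 panel per gene with its own linear axis, points for libraries by plasmid and black bars for the mean and SD (n = 4). Ptch1 lies above 169 CPM in every library, while Smo, the ligands, Hhip, Gli1 and Gli3 lie under 1 CPM.

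The negative regulators of the pathway were low to moderate in level. Sufu, which tethers the GLI proteins, was at 19.8, 20.7, 18.8 and 19.97 CPM under the empty plasmid and 22.8, 20.6, 19.6 and 21.2 CPM under the Yy1 plasmid. The groups overlap, and the log2 fold change was 0.083 (SE 0.064, edgeR adjusted p = 0.980). Gpr161, a ciliary receptor that raises cAMP and favours GLI repressor, was at 2.43, 1.69, 2.26 and 1.86 CPM against 1.81, 2.42, 2.62 and 2.35 CPM, also with overlap, and its log2 fold change was 0.16 (SE 0.18).

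Kif7, a kinesin that organises the tip of the cilium and acts on the GLI proteins there, had the most negative log2 fold change among the 42. It was at 3.80, 2.64, 3.14 and 3.01 CPM under the empty plasmid and 3.31, 2.46, 2.47 and 2.07 CPM under the Yy1 plasmid. Yy1 library 45 lay among the higher empty plasmid values while the other three lay below all of them, so the groups overlap. Its log2 fold change was -0.29 (SE 0.17, 95% interval -0.63 to 0.055), with an edgeR adjusted p of 0.946. Kif7 shares exon sequence with Ticrr and 9330171B17Rik on the opposite strand, so reads of these genes may not have been told apart.

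Of the GLI transcription factors, which carry the signal to the genome, Gli2 alone was tested. Gli2, mainly an activator once the pathway is on, was at 13.2, 15.4, 12.1 and 12.7 CPM under the empty plasmid and 12.8, 16.0, 14.9 and 15.7 CPM under the Yy1 plasmid. Yy1 library 45 lay within the lower empty plasmid values, so the groups overlap, and the log2 fold change was 0.15 (SE 0.085, 95% interval -0.025 to 0.33, edgeR adjusted p = 0.946). Ptch1 exceeded Gli2 11.2 times per kb under the empty plasmid and 9.88 times under the Yy1 plasmid.

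Gli1, whose transcript is the usual readout of an active pathway, had 0 counts in every empty plasmid library and 4, 1, 0 and 1 in the Yy1 libraries. Only Yy1 library 45 exceeded the floor of 3 counts, so no fold is given, and the edgeR adjusted p in the fit without the filter was 0.736. Gli1 also shares exon sequence with Arhgap9 and Gm47200 on the opposite strand. Gli3, the main repressor of the family, had 0, 1, 1 and 1 counts against 2, 1, 0 and 1, with no library above the floor. A floor of 3 counts stood for 0.0903 to 0.147 CPM in these libraries and covers counting error only. Ptch1 was thus plentiful in libraries where Gli1 and Gli3 were at or near 0 and Smo and Hhip were low.

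Beyond the 48, 149 other genes of the cilium and the Hedgehog pathway were listed by role, of which 148 were matched and 127 tested. Of these 127, 0 were called by edgeR, beside the 0.515% given above, 49 had a positive and 78 a negative log2 fold change, and the median was -0.017. At an unadjusted p under 0.05, 3 were higher, beside 3.23% of all tested genes, and 1 lower, beside 2.19%. The plasmid groups did not overlap in 4 of the 127, beside 3.95% of all tested genes. Of these, Ccnd2 was higher under the Yy1 plasmid, and Ttc21b, Foxj1 and Dnaic1 were lower. The 18 further IFT and dynein-2 genes had 6 positive and 12 negative differences, and the 18 further transition zone and inversin genes had the same split of 6 and 12. Of the 23 tested further Hedgehog pathway genes, 11 were positive and 12 negative.

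The 4 genes with an unadjusted p under 0.05 had different roles. Ccnd2, a D-type cyclin that GLI factors can induce, was at 8.19 ± 0.61 CPM under the empty plasmid and 9.89 ± 0.32 CPM under the Yy1 plasmid (SD, n = 4 each), with groups that did not overlap, and a log2 fold change of 0.27 ± 0.085 (SE; edgeR's adjusted p was 0.386). Scube1, a secreted protein of a family that helps release Hedgehog ligand, had a log2 fold change of 0.64 (SE 0.30). Drc1, a subunit of the regulatory complex of motile axonemes, had one of 0.43 (SE 0.19). Ffar4, a fatty acid receptor found on cilia, had one of -0.19 (SE 0.086). None of the 4 passed the test after adjustment over all genes.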

How the data were processed

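Poly(A) RNA of αTC1-6 cells was sequenced in 8 strand-marking libraries, per the labels' protocols, 4 for each plasmid. The tools fastp and kallisto and the build GRCm39 are named in the submitters' processing notes. Versions, the strand setting and the summing of transcripts to genes are not given in the sources used here. The table deposited by the authors holds estimated counts per Ensembl gene, not scaled for depth. They were rounded to whole numbers. No column was left unused.

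Symbols and transcript lengths came from GENCODE M21 (build GRCm38), which matched 48327 of 75078 IDs, and promoters from RefSeq (GRCm38.p6). Of the 48 genes, 11 share exon sequence with another gene, 1 of them (Bbs12) on the same strand. On the opposite strand they are Ift57, Ift88, Arl6, Cep290, Tmem67, Shh, Dhh, Hhip, Kif7 and Gli1. Reads of these genes may not have been told apart from those of their partners.

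Genes were kept by filterByExpr at a minimum count of 10 and a minimum total of 15. Libraries were scaled by TMM. The two-sided test was edgeR's (version 4.0.16, R 4.3.3) glmQLFTest after a robust glmQLFit, and p-values were adjusted by Benjamini-Hochberg over all 15916 tested genes at 0.05. The SE of a log2 fold change is its size over the square root of F, and intervals use the fit's t distribution at a level of 0.95. CPM uses TMM-scaled library sizes. The fit was tested on simulated data. Alternatives were other scaling and filters, DESeq2 1.42.0, limma-voom (3.58.1) and each library left out.

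Named genes were the tested Hedgehog members, the 8 members with the smallest p, the most and least abundant member of each list, Yy1, and up to 2 of each list of other genes. The untested Hedgehog members are named as well, and other names were chosen after their values were seen. The members and lists were chosen with earlier results of these data known.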

Additional observations from a re-analysis of the deposited data

Results flagged for a closer look

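Among the 84 groups of 4 libraries checked (42 tested genes in each plasmid group), 2 held a library far from the other three, and chance alone marks about 1 in 20 groups. Ift140, a core IFT-A subunit, stood at 36.3 CPM in Yy1 library 45 and at 38.8 to 39.2 CPM in the other Yy1 libraries. Bbs5, a BBSome subunit, stood at 10.6 CPM in the same library and at 9.06 to 9.16 CPM in the others. Library 45 was thus low for one gene and high for the other, and the call of neither gene changed without it.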

How the results depend on the processing

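The 43 named log2 fold changes were recomputed under 16 alternatives, giving 685 values, of which 677 kept their direction and their side of the threshold. The other 8 changed sign when 1 library was left out, and none of these genes was called. Over those fits the range was -0.0522 to 0.0174 for Arl6, -0.041 to 0.168 for B9d1, -0.00723 to 0.0541 for Bbs10, -0.00162 to 0.0515 for Ift80 and -0.00823 to 0.0536 for Ttc8. Of genes that kept their sign, Ift43 ranged from 0.0549 to 0.291, Kif7 from -0.436 to -0.181 and Smo from -0.363 to -0.0469. No cilium or Hedgehog gene was called under any alternative run. With 1 library left out, the median log2 fold change of the tested members ranged from -0.0342 to 0.00196, turning positive only without empty plasmid library 32. It was -0.022 to -0.0118 under the other alternatives. Members at an unadjusted p under 0.05 numbered 0 to 3 higher (3 without empty plasmid library 32) and 0 to 3 lower (3 without Yy1 library 45) with 1 library left out. Without a filter on low counts, with all 48 genes in the fit, they numbered 4 higher (Dhh, Gli1, Ift88 and Gli2) and 1 lower (Shh). In that fit 5.69% of all 40437 genes were at an unadjusted p under 0.05 in either direction. Dhh and Gli1 had 0 counts in every empty plasmid library, and their counts summed to only 7 and 6 over the Yy1 libraries. For the fits with 1 library left out no share of all genes is given, so their counts of members have no comparison. All genes called numbered 82, against 174 without a filter, 54 with a minimum of 1 CPM and 65 to 87 with 1 library left out. The cause of these differences was not tested. Smo, the ligands, Hhip, Gli1 and Gli3 rest on few counts. No paired analysis was possible because the library numbers of the groups are not shared.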

Other observations

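Some levels outside the comparison were chosen for mention after their values were seen. Sstr3, a somatostatin receptor that marks neuronal cilia, was measured at 33.7 CPM under the empty plasmid, and Adcy3, the adenylyl cyclase often used as a cilium marker in neurons, at 0.826 CPM. The RFX factors, which drive ciliary genes, included Rfx6 at 59.4 CPM and Rfx3 at 19.6 CPM. Among Hedgehog genes, Disp2, of the Dispatched family, stood at 309.4 CPM, and the co-receptors Cdon and Gas1 at 17.2 and 8.09 CPM.

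Prkar1a, the regulatory subunit gene of protein kinase A that most cells express, had 10 estimated counts summed over the empty plasmid libraries and 12 over the Yy1 libraries under its ID. Whether reads of a gene sit under another ID was not tested, and the same limit holds for the low values of Smo, Gli1, Gli3 and the ligands.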
